A study of Mus musculus with 6 samples.

Results

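The immediate early and cell isolation response genes comprise 34 mouse genes, chosen by name as genes that are induced within minutes to hours of a growth factor, stress or tissue dissociation stimulus. Their 34 gene identifiers were taken from the 54418 identifiers of the deposited count table, and all 34 passed the filter on low counts. The set holds 9 AP-1 family factors (Fos, Fosb, Fosl1, Fosl2, Jun, Junb, Jund, Atf3 and Maff), 3 EGR factors, 3 NR4A receptors, 4 KLF factors, 2 other transcription factors (Myc and Csrnp1), 4 dual specificity phosphatases, 3 IER genes, 5 other feedback regulators (Zfp36, Btg2, Socs3, Gadd45b and Sik1) and Arc. To examine what loss of the transcriptional repressor GLIS2 changes in mammary epithelium, the study sequenced total RNA of sorted mammary cells from 3 Glis2+/+ (WT) and 3 Glis2-/- (KO) female C57BL/6 mice of 4 weeks of age. The Glis2-/- mice carried a germline mutation of Glis2, so that every tissue of the animal lacked the intact gene, and no other allele or treatment was named for either genotype. Glands of both genotypes were digested overnight at room temperature with collagenase and hyaluronidase, then with trypsin and dispase, and live cells were sorted after staining for TER-119, CD31, CD45, CD24 and CD49f. Libraries were made from 1 ng of RNA, and each library came from a separate mouse.

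Immediate early genes are transcribed without new protein synthesis: ERK, JNK and p38 kinases and calcium signals act on factors already present, such as SRF with its ternary complex partners and CREB. The first wave of products includes AP-1 and EGR factors, which switch on later genes. It also includes proteins that end the response, among them phosphatases of the MAP kinases and proteins that destabilize mRNA. In mammary gland and other solid tissues, enzymatic digestion and sorting are themselves known to induce these genes, so that their level can reflect handling as well as the tissue.

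Total counts lay between 24996524 and 31393917 per library. For Glis2 itself, Glis2+/+ libraries held 671, 663 and 510 counts, against 252, 509 and 510 in Glis2-/-, or 19.6 to 23.2 against 10.1 to 17.0 CPM (counts scaled to the normalized library size). The normalized groups did not overlap, but Glis2 was not called (log2 fold change -0.57 ± 0.22 SE, adjusted p = 0.906, edgeR), and gene-level counts do not show which part of the gene a transcript holds. The epithelial markers Epcam and Cdh1 were present in every library (349 to 739 and 384 to 718 CPM). Col1a1, a collagen gene that marks fibroblasts, was also present (670 to 2180 CPM), and the immune marker Ptprc lay between 7.98 and 38.7 CPM.

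The 34 genes ranged from some of the most abundant transcripts of these cells to genes of middle and low rank. Together they held 1.40 to 1.93% of all counts and 1.59 to 2.23% of the TPM of protein-coding genes, where TPM are counts divided by transcript length and scaled to 1 total. On this per-length scale, with the TPM of protein-coding genes rescaled to the same total in each library, Fos stood at 3606 to 5799 and ranked between 3 and 11 among 21864 protein-coding genes. Fos encodes the partner that pairs with JUN proteins to form AP-1. The zinc finger factor Egr1 followed with 2192 to 2719.6 TPM (ranks 22 to 29), and its range did not overlap that of Fos. Atf3 (1279 to 2179 TPM), Jun (1240.3 to 2181 TPM) and Fosb (1039 to 1742 TPM) came next, and their ranges overlapped each other. Junb, at 671 to 834 TPM, lay below all 3. At the other end, the lowest per-length levels were those of the phosphatase gene Dusp2 (6.56 to 21.5 TPM, ranks 7584 to 10639) and of the orphan receptors Nr4a3 (21.6 to 39.0 TPM) and Nr4a2 (10.6 to 72.6 TPM). The plot of levels per length shows this order for all 34 genes and how closely the 6 libraries lay to one another for most of them.

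**Figure D1:**
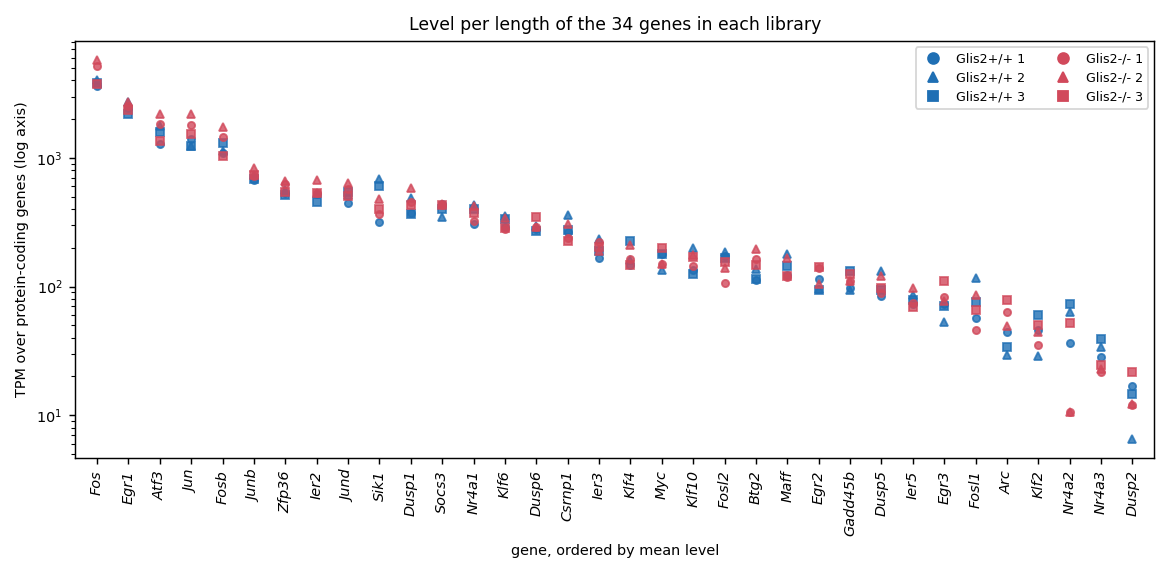
Level of each of the 34 genes per library as TPM over protein-coding genes, on a log axis, with genes ordered by mean level, blue for Glis2+/+ and red for Glis2-/-, and 1 symbol per replicate number. Fos, at 3606 to 5799 TPM, lies above every other gene in every library, and Nr4a2 has the widest vertical spread, from 10.6 to 72.6 TPM.

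Each family had 1 leading gene, which supplied the majority of the transcripts in every library for the FOS, EGR, NR4A and IER genes and a smaller share in some or all libraries for the JUN, DUSP and KLF genes. Fos made up 71.3 to 76.3% of the TPM of the 4 FOS genes, Egr1 made up 90.4 to 94.8% of the 3 EGR genes, and Nr4a1 made up 78.2 to 92.7% of the NR4A genes. Jun made up 49.7 to 55.6% of the JUN genes in the Glis2+/+ libraries and 55.2 to 59.6% in the Glis2-/- libraries, so that the ranges overlapped slightly. Among the phosphatases Dusp1 led with 47.9 to 57.8%, among the IER genes Ier2 with 62.4 to 70.0%, and among the 4 KLF genes Klf6 with 44.0 to 47.3%.

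In the median the 34 genes were more compact than other genes, a property that the choice by name did not use. The median gene span was 5243 bases, against 23943 bases for 15165 protein-coding genes tested, and the median number of exons was 3.5 against 9. Dusp1, Atf3 and Nr4a3 were exceptions with annotated spans of 56539, 47744 and 41295 bases, and Sik1 had 14 exons. The span joins all annotated transcripts of a gene, and that of Dusp1 overlaps the gene Ergic1. The Dusp1 transcript used here had 1990 bases in 4 exons. Transcript length was similar (medians of 2766.5 and 2984 bases). The 7-base AU-rich motif TATTTAT, of the kind that mRNA decay factors such as the product of Zfp36 recognize, was found in the annotated 3′ UTR of 20 of the 34 genes, against 28.2% of 14781 protein-coding genes with a 3′ UTR.

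Promoter sequences (RefSeq, GRCm38.p6, 250 bases before to 50 after the start) were matched for 26 of the 34 genes. No entry was matched for Fosl1, Arc, Myc, Klf10, Ier2, Egr1, Egr3 and Sik1. Searched on both strands, the CRE half-site CGTCA, a binding motif of CREB and ATF factors, was found in the promoters of 16 of the 26 genes, against 23.0% of 27025 genes. The full element TGACGTCA, which contains the half-site on both strands, was found in 3 (Btg2, Dusp1 and Maff), against 2.03%. TGACNTCA, which includes the full element, was found in 5, against 10.0%, and the AP-1 site TGANTCA in 1 (Csrnp1), against 8.97%. The CArG box bound by SRF was found in 3 (Dusp5, Egr2 and Zfp36), against 1.81%. The EGR motif GCGNGGGCG was found in 12, against 6.27%, in promoters whose median GC content was 63.7%, against 52.7% for all. These are matches of letters and were not tested as sites. The following sequences of AP-1, EGR and feedback genes are shown because their RNA is described below, 5′ to 3′ on the strand of the gene and ending 1 base before the annotated start, with capitals marking CGTCA or its reverse complement TGACG in Fos, Btg2 and Egr2, TGACNTCA in Jun, and the CArG box in Egr2.
Fos (chr12:85473750-85473889, plus strand): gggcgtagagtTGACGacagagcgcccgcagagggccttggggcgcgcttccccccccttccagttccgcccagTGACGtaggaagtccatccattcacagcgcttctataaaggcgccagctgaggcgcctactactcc
Btg2 (chr1:134079156-134079335, minus strand): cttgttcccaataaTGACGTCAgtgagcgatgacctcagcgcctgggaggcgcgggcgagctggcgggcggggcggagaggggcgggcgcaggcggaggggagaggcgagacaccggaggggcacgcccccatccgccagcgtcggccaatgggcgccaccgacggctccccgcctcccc
Jun (chr4:95052223-95052282, minus strand): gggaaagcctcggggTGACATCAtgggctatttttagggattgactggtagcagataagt
Egr2 (chr10:67537719-67537868, plus strand): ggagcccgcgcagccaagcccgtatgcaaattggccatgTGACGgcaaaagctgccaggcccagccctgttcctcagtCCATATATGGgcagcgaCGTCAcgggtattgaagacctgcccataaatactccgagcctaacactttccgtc

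In Jun the TGACNTCA match, TGACATCA, began 45 bases before the start. In Egr2 the CArG box began 72 bases before it, between half-sites at 111 and 55 bases. The 3 NR4A genes, which encode orphan nuclear receptors and are known CREB targets, each had 4 CGTCA half-sites in the 300 bases, a number that 69 of the 27025 genes (0.255%) reached. Their sequences are shown with the half-sites in capitals, and that of Nr4a3 stops where an annotated exon begins, so that the half-site nearest the start is not shown.
Nr4a1 (chr15:101266606-101266845, plus strand): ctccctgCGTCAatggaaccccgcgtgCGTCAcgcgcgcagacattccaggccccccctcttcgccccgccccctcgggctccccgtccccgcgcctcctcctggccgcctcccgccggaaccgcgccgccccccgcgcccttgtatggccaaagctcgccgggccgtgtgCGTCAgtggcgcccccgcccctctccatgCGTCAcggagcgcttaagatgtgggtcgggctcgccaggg
Nr4a2 (chr2:57124004-57124243, minus strand): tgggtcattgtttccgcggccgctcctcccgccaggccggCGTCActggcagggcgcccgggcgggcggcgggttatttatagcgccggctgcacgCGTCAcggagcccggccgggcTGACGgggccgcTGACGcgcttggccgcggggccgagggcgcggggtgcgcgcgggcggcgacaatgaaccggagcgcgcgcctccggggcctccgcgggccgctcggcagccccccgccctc
Nr4a3 (chr4:48045065-48045152, plus strand): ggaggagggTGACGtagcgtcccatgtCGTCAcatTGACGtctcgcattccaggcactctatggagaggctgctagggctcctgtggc

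To determine whether loss of Glis2 changed these genes, the 3 Glis2-/- libraries were compared with the 3 Glis2+/+ libraries. A gene was called where its adjusted p did not exceed 0.05 and its log2 fold change reached 0.58 in either direction. None of the 34 genes was called, and the share called among all 21236 genes tested was likewise 0% (edgeR). The smallest adjusted p was 0.849 among the 34 genes, for Arc, and 0.392 among all genes. At an unadjusted p under 0.05 there were 8 of the 34 genes, against 5.32% of all genes. Higher in Glis2-/- were 5 of them (Arc, Jun, Btg2, Egr3 and Fos), against 2.99% of all genes, and lower were 3 (Nr4a3, Nr4a2 and Fosl2), against 2.33%. The normalized values of the genotypes did not overlap for 5 genes that were higher (Arc, Jun, Btg2, Egr3 and Socs3), against 6.23% of all genes, and for the same 3 that were lower, against 5.5%. The fitted log2 fold change was positive for 22 genes and negative for 12, with a median of 0.11 against 0.01 for all genes, and 21 lay above and 13 below that median. On the deposited TPM scale, where 31.97% of all genes had a positive fold change and the median of all genes was -0.0639, 13 of the 34 genes were positive and 21 negative, and 18 lay above that median and 16 below it. With TPM rescaled to protein-coding genes, 24 lay above the median and 10 below. DESeq2, the tool of the study, called 1 of the 34 genes, Arc, against 45 of 27248 genes with an adjusted p (0.165%). With 3 libraries per genotype the smallest 2-sided p of an exact permutation test of a single gene is 0.1, which each of the 8 genes without overlap reached.

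**Figure D2:**
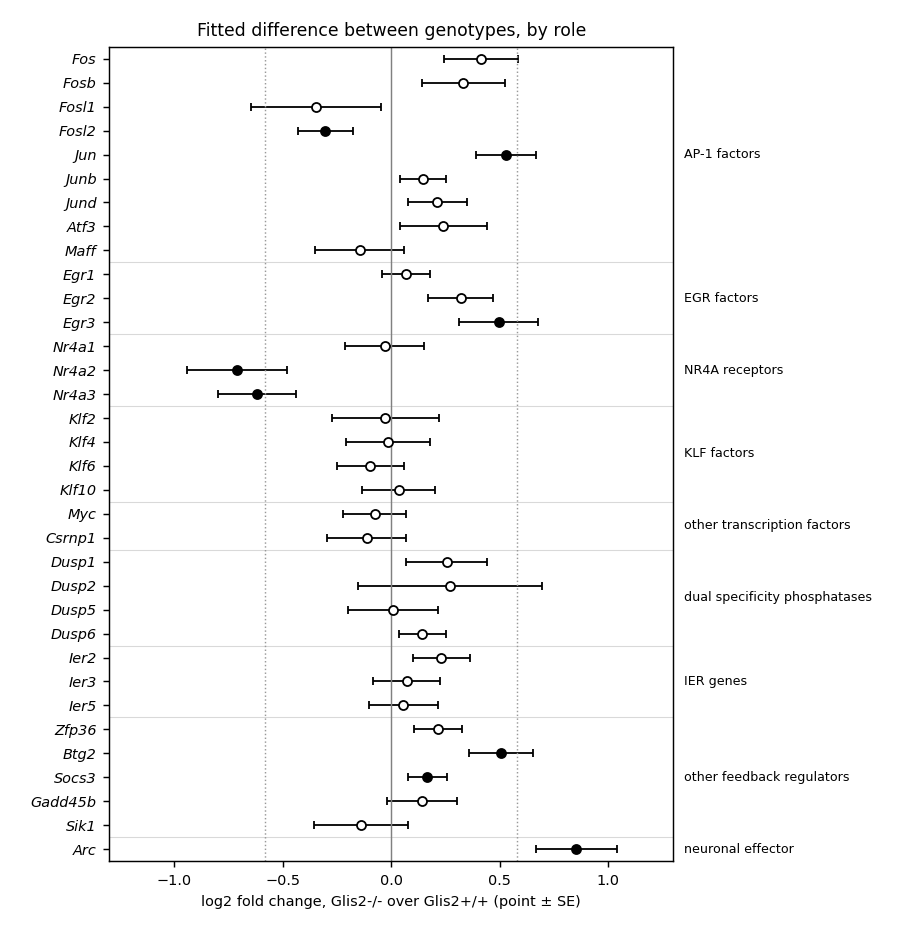
Fitted log2 fold change of Glis2-/- over Glis2+/+ for the 34 genes, grouped by role, with bars of 1 SE, filled points for the 8 genes without overlap between genotypes and dotted lines at the fold threshold of 0.58 in either direction. Arc, Nr4a2 and Nr4a3 are the 3 genes past the fold threshold, and for 19 genes the estimate exceeded its SE.

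The effector Arc, a gene of synaptic plasticity that also responds to serum and MAP kinase signals, had the largest fold change of the 34 genes. It lies on chromosome 15 (GRCm38, 74669083 to 74672570, minus strand). Its normalized values were 57.4, 40.3 and 45.0 CPM in the Glis2+/+ libraries and 84.7, 68.7 and 104 CPM in the Glis2-/- libraries. Every Glis2-/- library was above every Glis2+/+ library. The log2 fold change was 0.85 ± 0.19 (SE; unadjusted p = 0.00154, adjusted p = 0.849, edgeR). Arc was called by DESeq2 (adjusted p = 0.0263) and by edgeR with no filter on low counts (adjusted p = 0.0199, with 0.108% of 37115 genes called), while its adjusted p reached 1.00 with Glis2-/- replicate 1 left out. Its highest library, Glis2-/- replicate 3, also had the highest level of immune markers (124.7 CPM summed, against 29.9 to 74.7 CPM in the other 5), and their part in the result was not tested.

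Among the AP-1 factors, 6 of 9 had positive and 3 negative fold changes, and 51.6% of all genes were positive. An unadjusted p under 0.05 was reached by 3 of the 9, against 5.32% of all genes. Jun (chromosome 4, 95049034 to 95052222, minus strand), the core partner of AP-1 dimers, was at 1880.2, 1780.3 and 1730.1 CPM in the Glis2+/+ libraries and at 2506, 3157 and 2111 CPM in the Glis2-/- libraries. The Glis2+/+ values lay close together and below all Glis2-/- values (log2 fold change 0.53 ± 0.14, adjusted p = 0.906, edgeR). Fos was at 1583, 1876 and 1762 CPM against 2396, 2853 and 1702 CPM. Glis2-/- replicate 3 lay among the Glis2+/+ values, so that the genotypes overlapped (log2 fold change 0.41 ± 0.17). Fosb, which forms stable AP-1 complexes, was likewise highest in Glis2-/- replicates 2 and 1, with 1179, 1203.5 and 1381 CPM against 1647.5, 1989 and 1098 CPM. In Glis2-/- replicates 1 and 2 both genes were above every Glis2+/+ library, and replicate 3 was the lowest of all 6 for Fosb.

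The FOS-related genes Fosl2 and Fosl1, which encode FRA proteins of later AP-1 complexes, had negative fold changes. Fosl2 was at 275, 308 and 271 CPM in the Glis2+/+ libraries and at 191, 247 and 255 CPM in the Glis2-/- libraries, with no overlap (log2 fold change -0.30 ± 0.13, adjusted p = 0.906, edgeR). Its share of FOS family TPM was 3.10 to 3.50% in Glis2+/+ and 1.57, 1.79 and 3.08% in Glis2-/-. Fosl1 was at 34.6, 74.7 and 43.3 CPM against 29.4, 51.6 and 39.1 CPM. Here 1 Glis2+/+ library stood above the rest, and without it the fold change was 0.04 in place of -0.35. Atf3, a stress-induced ATF factor, was at 471, 715 and 631 CPM against 740.2, 871 and 533 CPM, with overlapping genotypes. Junb was at 487, 573 and 516 CPM against 541, 651 and 550.4 CPM, also overlapping, as did Jund and the small MAF factor Maff (log2 fold changes 0.21 and -0.14). The annotated spans of Junb, Dusp1 and Fosl1 overlap genes on the opposite strand that had over 5% of their counts (Prdx2 with 16.2%, Ergic1 with 20.5% and Ccdc85b with 61.7%). Whether their exons overlap was not examined, and the strand setting of the quantification is not given in the sources used here.

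The 3 EGR factors, zinc finger proteins that bind GC-rich sites, had positive fold changes, although that of Egr1 was negative on the deposited TPM scale (-0.101, against the median of -0.0639 for all genes) and with either of 2 replicates left out. Egr3 was at 77.7, 55.5 and 74.2 CPM in Glis2+/+ and at 91.6, 80.6 and 120 CPM in Glis2-/-, with no overlap (log2 fold change 0.50 ± 0.18, adjusted p = 0.906, edgeR). Egr2, a target and regulator of growth factor signals, was at 86.3, 72.9 and 75.6 CPM against 101, 78.0 and 114 CPM. For Egr2 Glis2-/- replicate 2 fell within the Glis2+/+ range (log2 fold change 0.32 ± 0.15). Egr1 had the highest counts of the 34 genes, with 3328, 3976 and 3144 CPM against 3574, 4030.2 and 3350.1 CPM. Its genotypes overlapped throughout (log2 fold change 0.07 ± 0.11).

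Of the NR4A receptors, Nr4a2 and Nr4a3 had lower values in all Glis2-/- libraries and Nr4a1 overlapped between genotypes, with no gene called. Nr4a3 (chromosome 4, 48045153 to 48086447, plus strand) was at 23.7, 33.4 and 35.4 CPM in Glis2+/+ and at 18.9, 20.8 and 20.5 CPM in Glis2-/- (log2 fold change -0.62 ± 0.18, adjusted p = 0.906, edgeR). Nr4a2 was at 22.1, 13.7 and 20.1 CPM against 10.4, 10.5 and 13.3 CPM (log2 fold change -0.71 ± 0.23, adjusted p = 0.906). Neither gene's genotypes overlapped, but the highest Glis2-/- value of Nr4a2 lay only just under the lowest Glis2+/+ value. Nr4a1, the most abundant of the 3, was at 245, 382 and 312 CPM against 257, 370 and 292 CPM, and its fold change of -0.03 ± 0.18 was positive with Glis2+/+ replicate 2 or Glis2-/- replicate 1 left out. For Nr4a2 the counts per TPM, a measure of the transcript length that the quantification assigned, varied 4.62-fold between libraries, against a median of 1.25-fold over 8716 protein-coding genes. On the per-length scale its values were 36.6, 63.1 and 72.6 TPM in Glis2+/+ and 10.6, 10.6 and 51.7 TPM in Glis2-/-, and the genotypes overlapped.

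The KLF factors, Myc and Csrnp1 showed no difference that exceeded the spread between libraries. Their fitted log2 fold changes lay between -0.11 and 0.03, with standard errors of 0.15 to 0.25. Klf2, a factor of quiescence and of endothelial cells, was at 33.9, 22.9 and 45.7 CPM in Glis2+/+ and at 27.1, 35.3 and 38.1 CPM in Glis2-/-. Klf4 ranged from 186 to 289 CPM, Klf6 from 425 to 587 CPM and Klf10, a TGF-β inducible factor, from 104 to 151 CPM. The growth regulator Myc lay between 93.7 and 130 CPM and Csrnp1 between 134 and 204 CPM.

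The 4 dual specificity phosphatases, which remove phosphate from MAP kinases and so close the response, had positive fold changes between 0.01 and 0.27, and none had an unadjusted p under 0.05. On the deposited TPM scale, with its median of -0.0639 for all genes, Dusp5 was at -0.139 and Dusp6 at -0.0150. The sign of Dusp5 also turned under other alternatives, and that of Dusp2 turned with Glis2+/+ replicate 2 or Glis2-/- replicate 3 left out. Dusp2, best known from activated lymphocytes, was the least abundant of the 34 genes, with 9.69, 3.12 and 8.52 CPM in Glis2+/+ and 6.67, 7.38 and 11.6 CPM in Glis2-/-. It had the widest range of all 34 genes (1.90 on the log2 CPM scale). Dusp1 lay between 265 and 458 CPM, Dusp5 between 85.8 and 145 CPM and the ERK phosphatase gene Dusp6 between 283 and 370.1 CPM.

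Among the other feedback regulators, Btg2 and Socs3 were higher in all Glis2-/- libraries and did not overlap between genotypes. Btg2 (chromosome 1, 134075170 to 134079120, minus strand), an antiproliferative protein that recruits the mRNA deadenylation machinery, was at 128, 166 and 135 CPM in Glis2+/+ and at 196, 239 and 174 CPM in Glis2-/- (log2 fold change 0.51 ± 0.15, adjusted p = 0.906, edgeR). Socs3, an inhibitor of JAK-STAT signaling, was at 449, 387 and 429 CPM against 471, 487 and 462 CPM. The log2 fold change of Socs3 was 0.17 ± 0.09. Zfp36, which encodes tristetraprolin, was at 577, 644 and 583 CPM against 705, 783 and 604 CPM, with Glis2-/- replicate 3 inside the Glis2+/+ range (log2 fold change 0.21 ± 0.11). Gadd45b, a stress sensor, and Sik1, a kinase that restrains CREB coactivators, had log2 fold changes of 0.14 ± 0.16 and -0.14 ± 0.22. Of the IER genes, Ier2 was at 316, 338 and 279 CPM against 331, 433 and 330.1 CPM with overlapping genotypes, and Ier3 and Ier5 had log2 fold changes of 0.07 and 0.06.

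**Figure D3:**
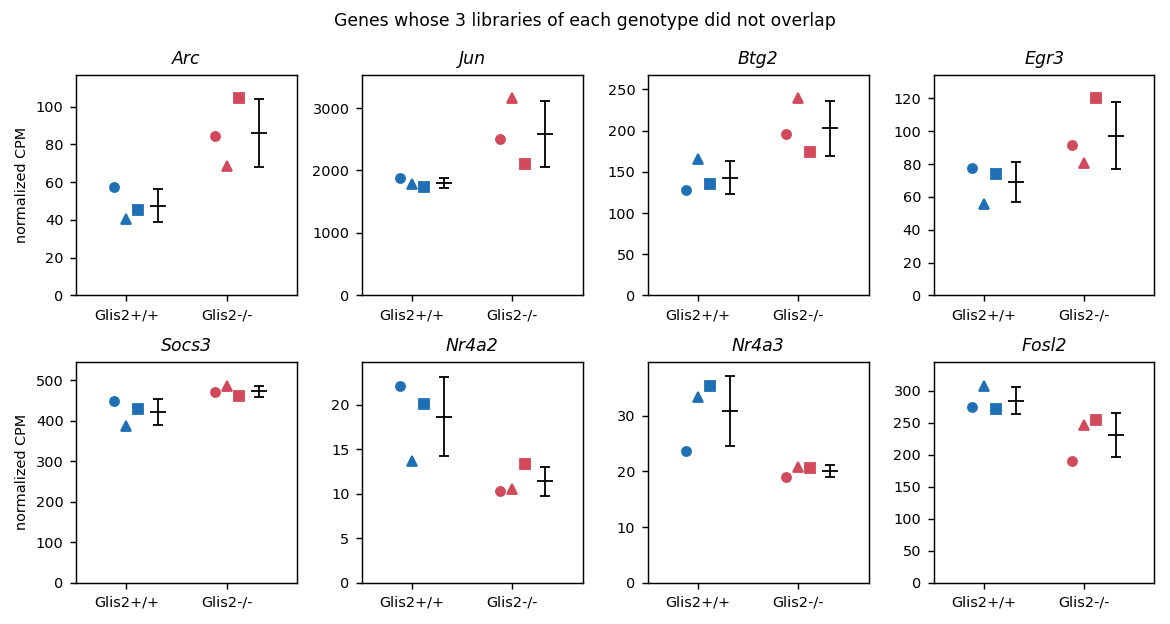
Normalized CPM of the 8 genes without overlap between genotypes in each library (circle, triangle and square for replicates 1, 2 and 3), with the mean and SD of the 3 libraries as black bars and each axis starting at 0. Arc, Jun, Btg2, Egr3 and Socs3 are higher in all 3 Glis2-/- libraries, and Nr4a2, Nr4a3 and Fosl2 are lower in all 3.

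Of the 8 genes at an unadjusted p under 0.05, 4 (Arc, Jun, Btg2 and Nr4a3) stayed under it with each library left out in turn. The largest p was then 0.00837 for Arc, 0.0182 for Jun, 0.0359 for Btg2 and 0.0356 for Nr4a3. For Fos it was 0.170, for Fosl2 0.142, for Egr3 0.111 and for Nr4a2 0.0543. With a library left out, the log2 fold change came closest to 0 at 0.23 for Fos, -0.19 for Fosl2, 0.30 for Egr3 and -0.58 for Nr4a2. On the deposited TPM scale, Arc, Nr4a3, Fosl2 and Nr4a2 had an unadjusted p under 0.05 (limma), and Jun, Btg2, Egr3 and Fos did not. With TPM rescaled to protein-coding genes, 7 of the 8 had it, all but Fos. The direction of 16 of the 34 genes, these 8 among them, turned in none of the alternatives run. DESeq2 shrinks fold changes toward 0, and there 3 of the 34 genes (Arc, Jun and Btg2) were above 0. The others were rounded to 0, which was not counted as a turn.

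The median range of the 34 genes over the 6 libraries, both genotypes together, was 0.67 on the log2 CPM scale, against 0.53 for the 10753 genes at least as abundant as the lowest of them, and 1.00 for all genes. Within genotypes, the median biological coefficient of variation was 17.3%, against 17.5% for genes as abundant. Glis2-/- replicate 2 had the highest level of the 6 libraries for 14 genes and the lowest for none, and Glis2+/+ replicate 2 had the highest for 9. Taking both libraries, 23 of the 34 genes were highest in 1 of the pair, against 41.7% of genes as abundant, and 13 genes had the pair as their 2 highest libraries, against 13.3%. Those 13 included Egr1, Junb, Nr4a1, Klf6 and Dusp1. Glis2+/+ replicate 1 had the lowest level for 13 genes.

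**Figure D4:**
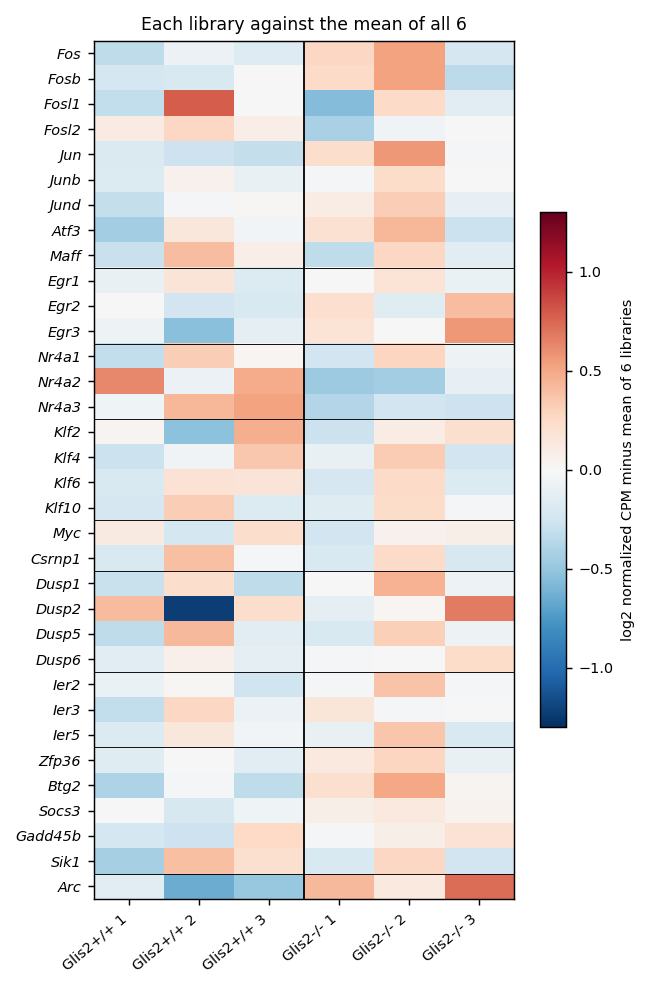
Deviation of each library from the mean of the 6 libraries in log2 normalized CPM, for the 34 genes ordered by role, with red above and blue below the mean. Glis2-/- replicate 2 is highest for 14 genes and lowest for none, and Glis2+/+ replicate 1 is lowest for 13 genes. Arc, Egr2, Egr3, Dusp2 and Dusp6 are highest in Glis2-/- replicate 3.

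The libraries also differed in the transcripts of other cell types, which in bulk RNA cannot separate fewer cells of a type from less RNA per cell. The summed level of 6 fibroblast markers was 7356, 2293 and 7727 CPM in the Glis2+/+ libraries and 4256, 2585 and 5884 CPM in the Glis2-/- libraries, so that replicate 2 of each genotype was lowest. The same 2 libraries had the highest sum of 12 epithelial markers (8929 and 9146 CPM, against 6231 to 8147 CPM) and the lowest sum of 6 endothelial markers (117 and 180 CPM, against 408 to 665 CPM). Of the 12 epithelial markers, 9 had positive and 3 negative fold changes, and 1 had an unadjusted p under 0.05, against 5.32% of all genes. This was Acta2, an actin gene of basal myoepithelial cells, at 1480, 1162 and 1083 CPM in Glis2+/+ and 1647, 1457 and 1836 CPM in Glis2-/- (log2 fold change 0.41 ± 0.13, adjusted p = 0.906, edgeR). It was highest in Glis2-/- replicate 3, and the groups overlapped. The basal keratin genes Krt14 and Krt17 had log2 fold changes of 0.45 ± 0.22 and 0.36 ± 0.17 and were also highest in that library. Of the 34 genes, Arc, Egr2, Egr3, Dusp2 and Dusp6 were highest there too. Krt5, the other basal keratin gene of the list, was at 366, 442 and 245 CPM in Glis2+/+ and 363, 361 and 427 CPM in Glis2-/- (0.13 ± 0.19), and was highest in Glis2+/+ replicate 2. Immune markers, of which 9 of 10 were tested, summed to 62.2, 29.9 and 50.1 CPM in Glis2+/+ and to 72.1, 74.7 and 125 CPM in Glis2-/-, with no overlap, and 8 of the 9 had a positive fold change. An unadjusted p under 0.05 was reached by 4 of the 9 (3 higher and 1 lower in Glis2-/-), against 5.32% of all genes. The immune marker Cd74 was called by DESeq2 (log2 fold change 1.05, adjusted p = 0.0440), which called 0.165% of all genes with an adjusted p. Adipocyte markers summed to 52.3 to 309 CPM and erythroid markers to 7.35 to 32.9 CPM. With the fibroblast and endothelial level as a covariate, 12 of the 34 genes had an unadjusted p under 0.05, against 8.98% of all genes, and none was called. The part of these markers in the values above was otherwise not tested.

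**Figure D5:**
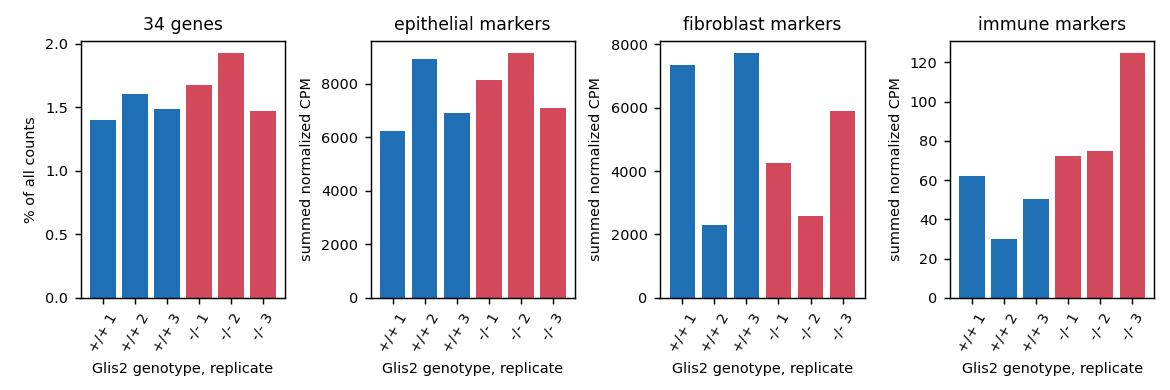
Share of all counts held by the 34 genes and summed normalized CPM of the epithelial, fibroblast and immune marker lists in each library, with blue bars for Glis2+/+ and red bars for Glis2-/-, and each axis starting at 0. The 34 genes hold 1.40 to 1.93% of counts, with the largest share in Glis2-/- replicate 2, and replicate 2 of each genotype has the lowest fibroblast sum.

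The genes outside the lists whose levels followed the mean of the 34 genes most closely over the 6 libraries were Tcf20 (Pearson r = 0.995), Gm43312 (0.993), Clk1 (0.992), Eif3m (0.990) and Gm38269 (0.989). These are descriptions over 6 libraries that share depth and composition, and Gm38269 was at under 1 CPM in every library. Tcf20, a transcriptional coregulator, lay at 201, 243 and 229.5 CPM in Glis2+/+ and 231, 286 and 234 CPM in Glis2-/-, and Clk1, a splicing kinase, at 225, 257 and 250.2 CPM against 245, 292 and 245 CPM. Both were highest in Glis2-/- replicate 2 and lowest in Glis2+/+ replicate 1.

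Other genes of the same pathways were examined as lists, and edgeR with the filter on low counts called none of their members. With no filter, 1 gene of the NF-κB and stress response list was called. Of 39 further immediate early and MAP kinase feedback genes tested, 18 had positive and 21 negative fold changes (median -0.07), and 4 had an unadjusted p under 0.05 (2 higher and 2 lower in Glis2-/-), against 5.32% of all genes. The smallest p values were those of Phlda1, a growth factor induced gene (log2 fold change -0.47 ± 0.17), of Spry2, an inhibitor of receptor kinase signaling (-0.26 ± 0.10), and of the GTPase gene Rhob (0.26 ± 0.11). Of 25 NF-κB and stress response genes, 8 had positive and 17 negative fold changes (median -0.09), with 7 at an unadjusted p under 0.05 (4 higher and 3 lower), against the same 5.32% of all genes. Cxcl1, a neutrophil chemokine, was at 43.5, 50.0 and 95.3 CPM against 25.8, 24.9 and 35.6 CPM (-1.13 ± 0.29) and was called by DESeq2 (adjusted p = 0.0333). Ddit4, an inhibitor of mTORC1, and Txnip, a regulator of redox and glucose uptake, had log2 fold changes of 0.52 ± 0.14 and 0.63 ± 0.17, and neither overlapped between genotypes.

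Of 15 heat shock chaperones, 6 had positive and 9 negative fold changes (median -0.07). An unadjusted p under 0.05 was reached by 2 of the 15, against 5.32% of all genes. These were Hspd1, the mitochondrial chaperonin (log2 fold change -0.27 ± 0.10), and Hsph1 (-0.65 ± 0.26). Hspb1 had the next smallest p (log2 fold change 0.43 ± 0.23). Of the 28 kinases and factors that act upstream of immediate early genes, 18 had positive and 10 negative fold changes (median 0.07), and none had an unadjusted p under 0.05. The smallest p values belonged to the JNK gene Mapk8 (-0.31 ± 0.14), to the SRF coactivator gene Mrtfa (0.25 ± 0.13) and to Srf itself (0.22 ± 0.12). In contrast to the 34 genes, whose median gene span was 5243 bases, these upstream genes had a median span of 57823.5 bases.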

How the data were processed

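RNA-seq libraries of sorted mammary cells from 3 Glis2+/+ and 3 Glis2-/- mice, 1 per animal, were used. The authors quantified reads with Salmon 1.2.1 (per the labels) on a transcriptome of mm10 and summarized genes with tximport. The deposited estimated counts are whole numbers without scaling and were not rounded again. The authors also deposited TPM on a log2 scale, to which they had added 1. Of 54418 identifiers, 54166 were matched to GENCODE M21 (GRCm38). Libraries held 24996524 to 31393917 counts, and no pair was identical within sampling noise (smallest chi-square per degree of freedom 18.8).

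Genotypes were compared with the quasi-likelihood test of edgeR 4.0.16 (R 4.3.3), filterByExpr and TMM over 21236 genes, without a replicate block. Calls required a Benjamini-Hochberg adjusted p up to 0.05 together with a log2 fold change of 0.58 or more in either direction. CPM values are normalized by TMM. TPM of protein-coding genes, which held 8.98 to 11.4% of all TPM, were rescaled to the usual TPM total for comparisons between genes. The test was checked on simulated counts. The 34 genes, the lists and the tests were chosen with earlier results of these data known. Values of every library are given for the 12 genes with the smallest p or no overlap, the 6 with the highest TPM and the 6 with the widest range, and of each list the 3 genes with the smallest p are named, as are the 5 genes most similar by Pearson r. Genes named as markers were chosen as examples after their values were seen.

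Alternatives were DESeq2 1.42.0 with apeglm 1.24.0, leaving out each library, a replicate block, no fold threshold, DESeq2 size factors, either no filter or a minimum of 10 counts per sample, and limma 3.58.1 on log2 TPM with 1 or 0.1 added. A covariate for fibroblast and endothelial markers and rescaled TPM in limma were added after seeing the data. Sequence matches were counted in RefSeq promoters and in GENCODE M21 transcripts, using for each gene the transcript with the longest coding part, and figures were drawn with matplotlib. Whether mice shared a litter or a sorting day is not given in the sources used here.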

Additional observations from a re-analysis of the deposited data

How the results depend on the processing

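Of the alternatives run, DESeq2 and the fit with no filter on low counts were those that called any of the 34 genes. DESeq2 called 1 of them and 45 genes in all, and no filter on low counts called 1 and 40, and each also called 1 gene of the NF-κB and stress list. Among all genes, 1 was called with log2(TPM + 0.1), 1 with TPM rescaled to protein-coding genes and 12 with the stromal covariate. On the deposited TPM scale with offsets of 1 and 0.1, 4 of the 34 genes had an unadjusted p under 0.05, against 6.70% and 6.69% of all genes, 3 did not overlap, against 13.1% of all genes, and the median log2 fold change was -0.0504 and -0.0519, while the median of all genes moved by -0.0751 and -0.151. Rescaled to protein-coding genes, that shift was -0.0196, and 23 of the 34 genes were higher in Glis2-/- and 11 lower. With each library left out, 5 to 9 of the 34 genes had an unadjusted p under 0.05, against 3.61 to 6.11% of all genes, with 5 without Glis2+/+ replicate 1, and 8 to 17 did not overlap, against 19.2 to 23.9% of all genes. The count was 17 without Glis2+/+ replicate 2 and 13 without Glis2-/- replicate 3, when 23.3% and 23.9% of all genes did not overlap. With each library left out, 18 to 26 of the 34 genes had a positive fold change, against 49.4 to 51.7% of all genes. The median log2 fold change of the 34 genes then lay between 0.03, without Glis2+/+ replicate 1, and 0.19, without Glis2+/+ replicate 2. The causes were not tested.

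Deviations of same-numbered libraries correlated at -0.0324, 0.286 and 0.0568, in the order of the replicate numbers. The highest value was that of replicate 2, whose libraries also had the lowest fibroblast and the highest epithelial sums. Such correlations do not show whether same-numbered libraries shared a litter or a sorting day, which was not tested. With a replicate block 11 of the 34 genes had an unadjusted p under 0.05, against 6.06% of all genes, and 0 genes were called. 

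Of the 34 genes, 18 turned direction under at least 1 alternative, 4 of them (Junb, Dusp6, Socs3 and Gadd45b) with the deposited TPM alone, on which the median of all genes was also lower, and 14 under another alternative. With offsets of 1 and 0.1 on the TPM scale the log2 fold changes were -0.0349 and -0.0353 for Junb, -0.101 and -0.102 for Egr1, -0.0456 and -0.0463 for Klf10, -0.139 and -0.148 for Dusp5, -0.0150 and -0.0154 for Dusp6, -0.0858 and -0.0889 for Ier3, -0.121 and -0.135 for Ier5, -0.0160 and -0.0163 for Socs3, and -0.0552 and -0.0576 for Gadd45b. Dusp5 was at -0.00218 with DESeq2 size factors and at -0.00978 with the stricter filter. Klf2 was at 0.0101 with the replicate block and 0.0197 with the stromal covariate, and Myc was at 0.0183 with rescaled TPM. With each library left out, the log2 fold change lay between -0.577 and 0.0411 for Fosl1, -0.339 and 0.0405 for Maff, -0.0155 and 0.176 for Egr1, -0.197 and 0.140 for Nr4a1, -0.246 and 0.239 for Klf2, -0.210 and 0.175 for Klf4, -0.0905 and 0.228 for Klf10, -0.197 and 0.0196 for Myc, -0.288 and 0.0764 for Csrnp1, -0.0864 and 0.544 for Dusp2, -0.159 and 0.261 for Dusp5, -0.0771 and 0.244 for Ier3, -0.140 and 0.148 for Ier5, and -0.364 and 0.0383 for Sik1.

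With 3 libraries per genotype, the standard errors of the 34 log2 fold changes ranged from 0.0891 to 0.424.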
